A study of Mus musculus with 6 samples.

Results

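The genes described here are the 35 named mouse genes that read well above background in control-transfected astrocytes and on none of the arrays of astrocytes given miR-29. They were chosen by the detection flag of the scanner software: at least 1 probe of the gene had the flag on all 3 control arrays, and no probe of the gene had it on any of the 3 miR-29 arrays. Genes were named by matching the RefSeq accession of each probe to a mouse symbol, and olfactory receptor symbols (Olfr) were left out. The 35 genes are among 18353 named genes on the array, and among 13218 named genes that had the flag on all control arrays, of which they make up 0.265%. Since the flags of all 6 arrays chose these genes, their fall from control to miR-29 is given below as a description and was not tested.

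The study placed 6 one-colour Agilent Whole Mouse Genome arrays on primary astrocytes from the cerebral cortex of C57BL/6 mice at embryonic day 18, a purchased culture. Both groups were cultured for 3 weeks, transfected at 80 nM and harvested after 48 h. The miR-29 group received a mixture of Pre-miR precursors in which miR-29a, miR-29b and miR-29c stood 1 to 2 to 1, and the control group received the Pre-miR Negative Control1 precursor. The protocol states an efficiency above 90%, and the 3 arrays of each group are extraction replicates that nothing in the labels ties to separate cultures, so SD, SE and p-values here cover only the spread between these samples.

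MicroRNAs are short RNAs that guide the silencing complex to messenger RNAs, mainly by pairing of a short stretch near their 5′ end, the seed, and that lower the stability and translation of the paired messages. The miR-29 family is known for messages of collagens and of the enzymes that shape the extracellular matrix. Cultured astrocytes make and secrete matrix proteins, proteases and adhesion proteins, and express many receptors and transporters at low level. The mature mouse strands are shown because their shared seed defines the treatment. They are RefSeq entries of build GRCm38.p6, written 5′ to 3′ with bases 2 to 8, the seed, in capitals.
mmu-miR-29a-3p: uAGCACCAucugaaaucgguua
mmu-miR-29b-3p: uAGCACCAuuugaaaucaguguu
mmu-miR-29c-3p: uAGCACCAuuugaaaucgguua
The seed AGCACCA was the same in all 3. Over the first 22 bases miR-29c differed from miR-29a at 1 position and miR-29b at 4, and the first difference lay at base 10 in both. Target sites in the messages of the 35 genes were not analysed here.

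The flag marks a spot whose signal stands well above the local background, so "undetected" in these genes means dim and not absent. A second and less strict flag, for signal that is positive and significantly above background, was still present in 99 of the 105 readings of the 35 genes on the miR-29 arrays, and on all 3 miR-29 arrays for 29 genes. With that flag in the same rule 12 genes qualified, and 0 of the 35 were among them. Signals are given below on a linear scale on which the 75th percentile of each array's non-control spots is 1000. On this scale the lowest signal that carried the strict flag lay between 15.7 and 19.7 on the 6 arrays, and the highest signal without it lay between 23 and 30.6.

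All 35 genes were faint in the control cells too. Their geometric means over the control arrays ran from 23.3 to 91.2 with a median of 35.3, against a median of 1250 over all named genes with the flag on every control array. The brightest of the 35 stood at percentile 11.7 of those genes and the median gene at percentile 2.53. On the miR-29 arrays their median was 13.1. The highest miR-29 value lay below the lowest control value in each of the 35 genes, by a factor of at least 1.14. Groups were separated in this direction for 28.3% of all named genes tested. The rule all but fixes this for its own genes, so nothing is read from it.

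Because the miR-29 signal was below the flag, each fall is given as a lower bound. The bound sets the control mean against, on each miR-29 array, the higher of the gene's own value and the lowest flagged signal of that array. The lowest flagged signal is a lenient floor. On the miR-29 arrays the highest signals without the flag were 24.9, 24.9 and 25.6. Against those every bound would be smaller, and the control means of Otor (23.9) and Anxa10 (23.3) lay below them. The control mean is taken as it stands, so the bound does not allow for the spread between arrays. It was at least 2-fold in 18 genes and under 2-fold in 17, with a range from 1.39 to 4.78 and a median of 2.02. With single arrays left out, the bound fell as low as 1.51 for Hoxb9, 1.83 for Speer6-ps1 and 1.98 for Klf12. It rose as high as 2.21 for Rpe65, 2.08 for Arpp21 and 2.02 for Cbfa2t3, which were under 2-fold with all arrays. The measured log2 difference, miR-29 minus control, had a median of -1.45 and ran from -3.73 to -0.64. It used values near background and is less certain than the bound. With a background correction that adds an offset of 50 (normexp) its median was -0.24, with -0.66 for Cldn1 and -0.20 for Amigo2. All 35 log2 differences stayed negative, though the rule chose the genes for this direction. With this correction the fall of each gene was smaller than its bound. The bounds, also where given below as "at least", thus hold only for the background subtraction of the scanner software.

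**Figure D1:**
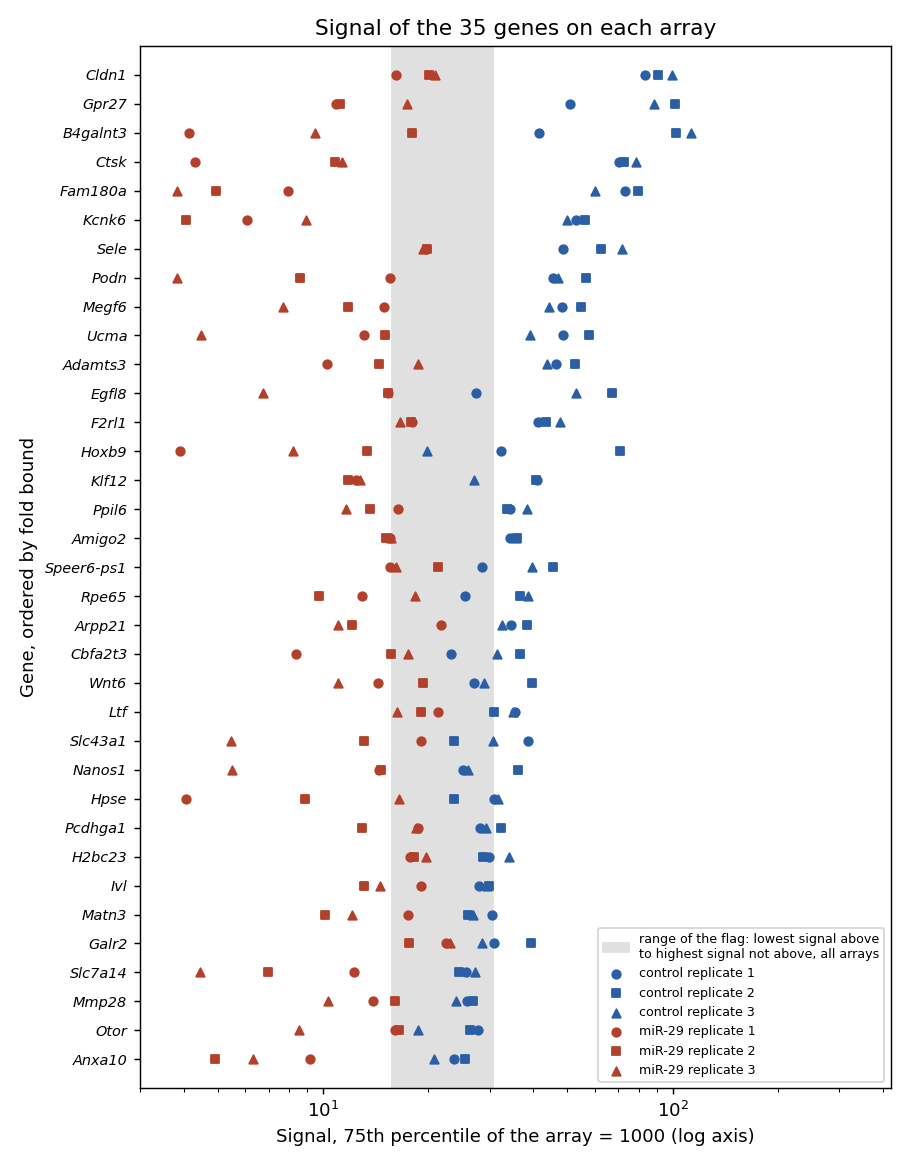
Signal of each of the 35 genes (rows, ordered by fold bound) on each of the 6 arrays, on a log axis where the 75th percentile of the array is 1000. Blue points are control arrays and red points miR-29 arrays, the marker gives the replicate, and the grey band runs from the lowest flagged signal to the highest unflagged signal of any array (15.7 to 30.6). In the upper rows the control points lie mostly above the band, and the miR-29 points below it or, as for Cldn1 and Sele, inside it. In the lower rows the control points lie inside or close to the band. The miR-29 points there lie inside it or below it, far below for Anxa10.

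Proteins of the matrix and secreted proteins were 13 of the 35 genes, when the genes were sorted by the known role of their product. The other genes of the array were not sorted in this way, so these groups order the account and have no background share. Bounds in this group ran from 1.42-fold to 4.41-fold, and 7 of 13 were at least 2-fold. Ctsk encodes cathepsin K, a cysteine protease that degrades collagen. Its control readings, given here and below by replicate number, were 70.4, 72.7 and 78.8, and its readings after miR-29 were 4.32, 10.8 and 11.3. The control values lay close together and far above the band of the flag, and the gene was at least 4.41-fold lower (log2 difference -3.19, SE 0.374, n = 3 per group). Fam180a, a gene of little-known function with a predicted secreted product, read below the lowest flagged signal on all 3 miR-29 arrays. Its control arrays read 73.1, 79.5 and 59.9 and its miR-29 arrays 7.93, 4.95 and 3.84, a fall of at least 4.2-fold (log2 difference -3.73, SE 0.272, and -0.63 with normexp, where those of Gpr27 and Cldn1 were larger in size at -0.70 and -0.66).

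Adamts3 encodes a procollagen N-proteinase, an enzyme that trims procollagen chains before fibrils form. Of the 35 genes it alone was in a list of miR-29 targets known from other work. The probe that qualified read 46.5, 52.7 and 43.6 in control cells and 10.3, 14.5 and 18.7 after miR-29, at least 2.77-fold lower (log2 difference -1.75, SE 0.218). Its miR-29 replicate 3 lay inside the band of the flag, and all 3 control arrays lay above it. A second Adamts3 probe did not have the flag on any array, with 4.71, 8.60 and 3.63 in control cells and 4.01, 9.26 and 6.95 after miR-29, where the groups overlapped. Of the 67 other listed targets tested with limma across the whole table, 51 were lower, 3 higher and 13 not past an adjusted p of 0.05, with a median log2 difference of -0.76. Over all named genes in the same fit 24.6% were lower and 37.9% higher, or 3369 and 5199 genes, and with arrays scaled to spike-in spots the counts turned to 5401 lower and 2228 higher.

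Podn encodes podocan, a small leucine-rich proteoglycan that binds collagen. It read 45.6, 56.5 and 47 in control cells and 15.6, 8.59 and 3.82 after miR-29, at least 2.95-fold lower (log2 difference -2.63, SE 0.489), and its miR-29 arrays differed widely among themselves. Ucma encodes a small, calcium-binding protein of cartilage matrix. Its control arrays read 48.5, 57.7 and 39 and its miR-29 arrays 13.1, 15.1 and 4.49, a fall of at least 2.85-fold with replicate 3 the lowest of the miR-29 arrays. Megf6, named for its many epidermal growth factor-like domains, read 48.2, 54.7 and 44.2 in control cells and 15, 11.8 and 7.69 after miR-29, at least 2.92-fold lower. Its second probe did not have the flag on any array and was near 5 in both groups, between 4.75 and 6.15. Egfl8, which encodes a secreted protein with domains of the same kind, was less even. Its control arrays read 27.4, 67.1 and 53.1 and its miR-29 arrays 15.4, 15.4 and 6.75, and control replicate 1 was the dimmest of the controls. The bound was 2.75-fold against the mean of the controls, and 1.64-fold against replicate 1 alone.

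The remaining matrix and secreted genes sat closer to the flag. Mmp28, a matrix metalloproteinase gene, read 25.8, 26.9 and 24 in control cells and 13.9, 16.1 and 10.3 after miR-29, at least 1.53-fold lower. In the list of matrix proteases and collagen processing, without its members Mmp28 and Adamts3, 27 of 51 tested genes were lower, 11 higher and 13 not past the threshold of the limma fit. Wnt6 encodes a secreted ligand of the Wnt pathway. It read 27, 39.7 and 29 in control cells and 14.4, 19.3 and 11.1 after miR-29, at least 1.77-fold lower. In the list of Wnt, Hedgehog and Notch genes without Wnt6, the fit called 19 of 66 lower and 23 higher and made no call for 24. Ltf encodes lactotransferrin, a secreted iron-binding protein. Its readings were 35.5, 30.8 and 35 in control cells and 21.4, 19.1 and 16.3 after miR-29, at least 1.75-fold lower, and a second probe had the flag on 1 control array (13.3, 16.2 and 19.3 in control cells, 6.49, 10.7 and 13.0 after miR-29). Otor, which encodes the small secreted protein otoraplin, read 27.7, 26.3 and 18.7 in control cells and 16.1, 16.5 and 8.52 after miR-29. All its control values were inside the band of the flag, and the bound was 1.42-fold. Hpse (heparanase, which cleaves heparan sulfate chains) and Matn3 (matrilin 3, a cartilage matrix protein) are the other two genes of this group, with bounds of 1.7-fold and 1.62-fold.

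Among adhesion and junction proteins, 3 of 4 genes had a bound of at least 2-fold. Cldn1 encodes claudin 1, a protein that forms the strands of tight junctions. It was the brightest of the 35 genes in control cells, with 83.6, 91.1 and 99.5, and read 16.2, 20.1 and 20.9 after miR-29. This was the largest bound of the set, at least 4.78-fold lower (log2 difference -2.27, SE 0.118). Cldn1 was also the only member with a second probe that met the rule: 56.3, 64.1 and 75.3 in control cells and 15.0, 17.3 and 12.7 after miR-29, a log2 difference of -2.12. The 3 arrays of each group stood together with both probes.

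Sele encodes E-selectin, the endothelial adhesion receptor that catches leukocytes. It read 48.6, 62.3 and 71.5 in control cells and 19.7, 19.9 and 19.3 after miR-29, at least 3.06-fold lower (SE 0.139 on the log2 scale), with miR-29 arrays that were nearly equal and inside the band. Amigo2, which encodes a leucine-rich repeat adhesion protein of neural cells, had the tightest replicates of the set. The control arrays read 34.4, 35.9 and 35.8 and the miR-29 arrays 15.6, 15.1 and 15.6, at least 2.11-fold lower (log2 difference -1.19, SE 0.0455). Pcdhga1, a clustered protocadherin gene, had a bound of 1.68-fold. It shares its last exons with the other genes of its cluster, so which of them its signal stands for is uncertain.

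Receptors, channels and transporters gave 6 genes, 3 of them with a bound of at least 2-fold. Gpr27 encodes an orphan G protein-coupled receptor of the brain. Its control arrays read 50.9, 102 and 88.6 and its miR-29 arrays 10.9, 11.2 and 17.4, at least 4.61-fold lower, and 3.04-fold against control replicate 1 alone, the dimmest control array for this gene. Kcnk6, a tandem pore domain potassium channel gene, read 53, 56.1 and 50 in control cells and 6.08, 4.06 and 8.92 after miR-29. Its control arrays were close to each other, all miR-29 arrays were below the band, and it was at least 3.16-fold lower (log2 difference -3.13, SE 0.274). F2rl1 encodes a receptor that trypsin-like proteases activate by cutting it. It read 41.1, 43.4 and 47.5 in control cells and 18, 17.9 and 16.7 after miR-29, with little spread in either group, at least 2.46-fold lower (SE 0.0706 on the log2 scale). The galanin receptor gene Galr2, the amino acid transporter gene Slc43a1 and the solute carrier gene Slc7a14 had bounds of 1.56, 1.73 and 1.54. A second Slc7a14 probe, without the flag on any array, had a log2 difference of 1.02, opposite in sign to the first. By symbol, 3 of 115 G protein-coupled receptor genes with the flag on all control arrays were in the set, 2 of 247 solute carriers and 1 of 120 ion channels. The share over all named genes was 35 of 13218 (0.265%), and counts this small were not tested against it.

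The 5 nuclear and RNA regulators lay low in control cells, with geometric means from 28.7 to 35.7, and 2 had a bound of at least 2-fold. Klf12 encodes a zinc finger repressor of transcription. It read 41, 40.7 and 27 in control cells and 12.4, 11.8 and 12.8 after miR-29, at least 2.12-fold lower, with miR-29 arrays close together and control replicate 3 the dimmest control. A second Klf12 probe did not have the flag on any array (4.61 to 9.14 over all 6). Hoxb9, a homeobox gene of the trunk axis, was uneven, with an SE of 0.61 on the log2 scale. Its control arrays read 32.3, 71 and 19.9 and its miR-29 arrays 3.9, 13.4 and 8.24. Control replicate 2 stood far above the other controls, and the bound of 2.13-fold was 1.51-fold without it. Cbfa2t3 encodes a corepressor that joins transcription factors to histone deacetylases. It read 23.3, 36.5 and 31.5 in control cells and 8.4, 15.7 and 17.5 after miR-29, at least 1.79-fold lower, and its second probe had the flag on 2 control arrays (9.81, 30.5 and 17.7, against 17.8, 8.11 and 4.48 after miR-29), where the groups overlapped. The RNA-binding repressor gene Nanos1 and the histone H2B gene H2bc23 had bounds of 1.71 and 1.66. H2B genes are near-identical copies, so the source of that signal is uncertain.

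The last 7 genes encode enzymes and other intracellular proteins or, in 1 case, no protein. B4galnt3 encodes a glycosyltransferase that adds N-acetylgalactosamine to sugar chains. Its control arrays read 41.6, 102 and 113 and its miR-29 arrays 4.15, 18 and 9.48, at least 4.51-fold lower, but 2.39-fold against control replicate 1 alone. Both groups were spread widely (SE 0.627 on the log2 scale). Ppil6, of the cyclophilin family of prolyl isomerases, read 34.2, 33.6 and 38.5 in control cells and 16.5, 13.6 and 11.6 after miR-29, at least 2.11-fold lower. Rpe65, the retinoid isomerase of the visual cycle, read 25.5, 36.5 and 38.6 in control cells and 13, 9.73 and 18.3 after miR-29, at least 1.94-fold lower.

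Arpp21 encodes a phosphoprotein of neurons regulated by cyclic AMP. The probe that qualified read 34.6, 38.3 and 32.6 in control cells and 21.7, 12.1 and 11 after miR-29, at least 1.91-fold lower. Its other two probes did not have the flag on any array and had log2 differences of 1.22 and 0.22, opposite in sign to the first. Anxa10, an annexin gene, was the dimmest of the 35 in control cells, with 23.8, 25.6 and 20.8, and read 9.17, 4.91 and 6.31 after miR-29, at least 1.39-fold lower. Speer6-ps1 is a pseudogene of a family with near-identical copies, which its probe may not tell apart. It read 28.5, 45.5 and 39.7 in control cells and 15.5, 21.4 and 16.2 after miR-29, at least 2.02-fold lower. Ivl, which encodes involucrin of the skin's cornified envelope, had a bound of 1.66-fold.

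The 9 genes given above by their bound alone read between 23.7 and 39.4 on the control arrays and between 4.06 and 23.1 on the miR-29 arrays. Their bounds ran from 1.54-fold to 1.73-fold.

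Of the 35 genes, 25 had 1 probe and 10 had several. Among the 11 other probes of those 10 genes, that of Cldn1 met the rule, those of Cbfa2t3 and Ltf had the flag on some control arrays, and 8 did not have it on any of the 6 arrays. The log2 difference was negative for 7 of the 11. For 9 of the 10 genes with several probes, only 1 probe met the rule. The second probes of Ltf and Cbfa2t3 also read lower, with log2 differences of -0.73 and -1.01, but the groups overlapped for Cbfa2t3. In the genes with 1 probe no second probe was there to compare. When all probes of a gene were averaged, the median log2 difference of the 35 was -1.19, that of Arpp21 became 0.047 and that of Slc7a14 moved from -1.83 to -0.40.

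The arrays lay on 2 slides. Control replicate 1 shared slide 1 with all miR-29 arrays, while the other controls, replicates 2 and 3, were on slide 2. Control replicate 1 had the flag on 61.9% of probes, against 64.7% to 66.8% on the other 5 arrays. Measured against control replicate 1 alone, all 35 genes had a negative log2 difference, with a median of -1.31. The rule used this array and all but fixes the sign, so nothing is read from the sign. Against this array 16 genes had a bound of at least 2-fold. Within the 35, control replicate 1 was the lowest control array for 16 genes. The same share was not counted over all genes, and the rule required the flag on this array, so nothing is read from that count. The median log2 difference of this array from the other controls was -0.072 for the 35 genes (0.029 over all named genes with the flag on every control array). The bound was over 1.5 times smaller for Gpr27, B4galnt3 and Egfl8, whose values against replicate 1 are given above. It fell below 2-fold for Egfl8, Hoxb9 and Speer6-ps1 and rose above 2-fold for Slc43a1.

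**Figure D2:**
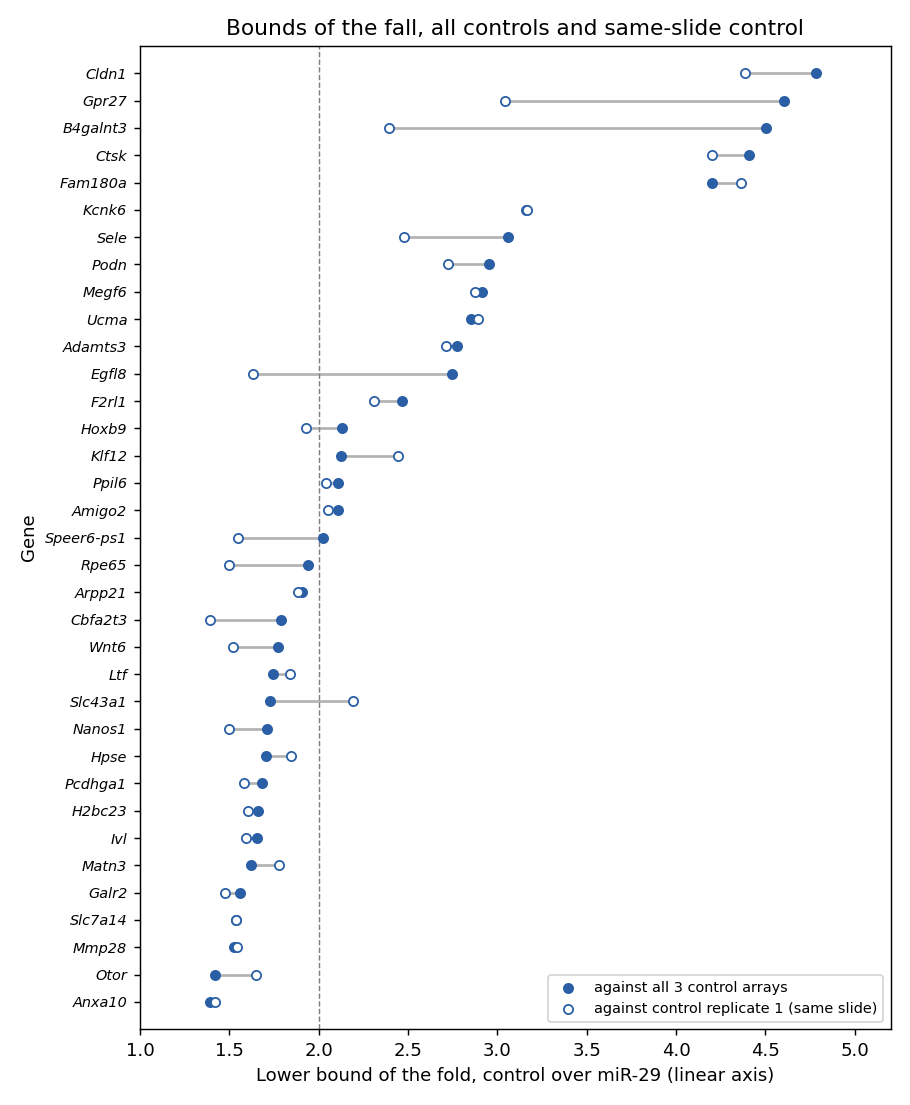
Lower bound of the fold, control over miR-29, for each of the 35 genes on a linear axis. Filled points use all 3 control arrays and open points control replicate 1, the control array on the slide of the miR-29 arrays, and the dashed line marks 2-fold. Cldn1, Ctsk and Fam180a stay above 4-fold with both, while B4galnt3 moves from 4.51 to 2.39 and Egfl8 from 2.75 to 1.64.

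Several genes lay near the edge of the rule. The genes with the least margin above the lowest flagged signal of the same array were Cbfa2t3, Otor and Anxa10. On the control array with the least margin they stood at 1.18, 1.19 and 1.21 times that signal. Just outside lay 34 genes with the flag on all control arrays and on exactly 1 miR-29 array, which was miR-29 replicate 2 for 22 of them, replicate 3 for 7 and replicate 1 for 5. The 3 with the lowest miR-29 signal all had it on replicate 2. Slc17a7, a vesicular glutamate transporter gene of neurons, read 29, 104 and 141 in control cells and 3.48, 21.7 and 15 after miR-29. Padi4, a peptidylarginine deiminase gene, read 34.1, 69.2 and 89.1 and 5.75, 29 and 7.98, and 1700012A03Rik read 22.5, 82.3 and 60 and 11.2, 29.7 and 3.89. These genes were picked for their low miR-29 signal, and the flag on 1 array kept them out.

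A further 101 genes had the flag on no miR-29 array and on 2 of the 3 control arrays. In 94 of these the missing array was control replicate 1, so they read above background on both arrays of slide 2 and on none of the 4 arrays of slide 1. The count of 35 became 129 without control replicate 1 and 57 without miR-29 replicate 2, and 37 to 42 without any other single array. With control replicate 1 as the only control it was 44. The reverse rule, above background on all miR-29 arrays and on no control array, gave 105 genes, 0.782% of the 13421 named genes with the flag on all miR-29 arrays. Without control replicate 1 the reverse rule gave 109 genes, against 129, so the order of the counts turned. With control replicate 1 as the only control, the array on the slide of the miR-29 arrays, it gave 328 against 44. The difference between the counts was not tested.

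**Figure D3:**
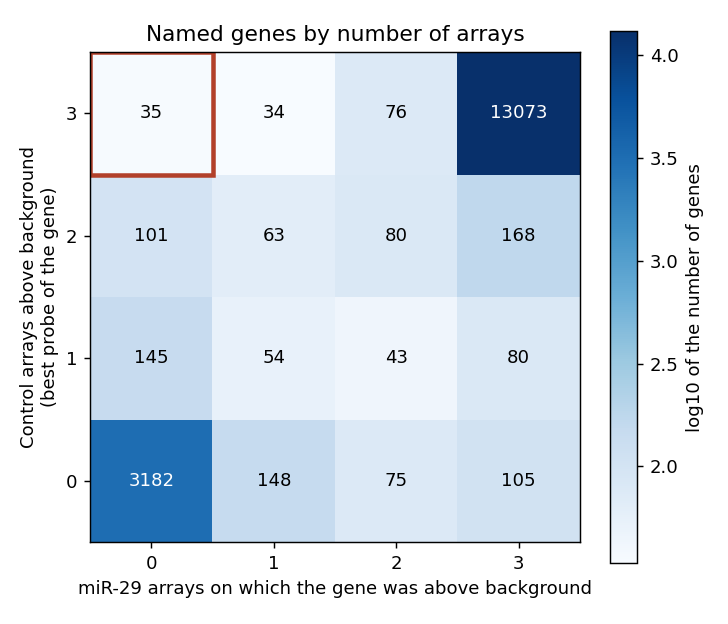
Named genes by the number of control arrays (vertical axis, best probe of a gene) and of miR-29 arrays (horizontal axis, any probe) on which they were above background, with the colour on a log scale. The red frame marks the 35 genes described here, beside 34 genes with 1 miR-29 array and above 101 genes with 2 control arrays, while 13073 genes were above background on all 6 arrays.

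In bulk RNA, fewer cells of a type and less RNA per cell cannot be told apart, so marker lists of the cell types a cortical culture could hold were read beside these genes. Summed signals follow the brightest genes of a list, so the calls of the limma fit are given with them. As a background for these calls, 24.6% of the named genes tested fell in that fit and 37.9% rose. No list was tested against these shares. Sums and calls both rest on the 75th percentile scale. Had spike-in spots set the scale, the table-wide counts would be 5401 falling and 2228 rising, so the balance within a list depends on this choice. Of 21 astrocyte markers 20 had the flag on all 6 arrays, and Gjb6 had it on none. Their summed signal was 569147 to 631285 in control cells and 638520 to 728052 after miR-29, and the fit called 2 of 20 lower and 12 higher. Of 18 endothelial markers, read beside Sele, 9 had the flag on all arrays and Tek, Tie1, Erg and Sox18 on none. Their sum was 4422 to 4918 in control cells and 3761 to 4058 after miR-29, but 3 of 10 tested were lower and 4 higher, with a median log2 difference of 0.09. Of 24 fibroblast, meningeal and mural markers, read beside Podn and Ctsk, 20 had it on all arrays and Rgs5 and Kcnj8 on none. Their sum, which includes collagen genes, was 1105220 to 1155400 in control cells and 909179 to 961190 after miR-29, but 8 of 21 tested were lower and 8 higher (median log2 difference 0.12). Neuron markers, read beside Amigo2 and Arpp21, had it on all arrays in 15 of 26 cases and on none for Neurod1, Neurod6, Tbr1 and Reln. Their sum was 10336 to 11181 in control cells and 8871 to 9143 after miR-29, but 6 of 20 tested were lower and 7 higher (median log2 difference 0.16). Of 18 microglia and macrophage markers 7 had it on all arrays and 10 on none, among them Aif1, Cx3cr1, Ptprc, Trem2, Tyrobp and C1qa. Their sum was 17650 to 18478 in control cells and 13746 to 14292 after miR-29, and 4 of 7 tested were lower and 1 higher. Of 20 oligodendrocyte lineage markers 14 had it on all arrays (sums of 10170 to 14835 and 10984 to 11319), with 4 of 15 tested lower and 6 higher. Of 15 ependymal and choroid plexus markers 9 had it on all arrays. Their sum was 7513 to 7970 in control cells and 11487 to 12654 after miR-29, while 3 of 10 tested were lower and 4 higher (median log2 difference 0.037). The part of these lists in the falls described here was not tested.

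None of the 35 genes was a member of the lists of collagens and basement membrane, growth factors and cytokines, their receptors, S, G2 and M phase genes, apoptosis regulators, DNA methylation, or interferon response. With 0.265% of all detected genes in the set and 25 to 163 detected genes in each list, a count of 0 is near the background and is no result about the members. In the limma fit, which called 24.6% of all named genes lower and 37.9% higher, 35 of 45 collagen and basement membrane genes were lower and 3 higher, and 120 of 163 S, G2 and M phase genes were lower and 10 higher. Genes related to members by name were read in the same fit. Among 10 other ADAMTS genes it called 4 lower and 1 higher and made no call for 5. Among 9 other claudins the counts were 4, 0 and 5, among 12 other cathepsins 2, 2 and 8 in the same order, and among 6 other tandem pore domain potassium channel genes 2, 1 and 3. Both of the other matrilin genes tested were lower.

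Promoter sequence was a property that the rule did not use. A window of 300 bases, 250 before and 50 after the start, was in the RefSeq table (GRCm38.p6) for 29 of the 35 genes, and 1 window per gene was read, the first listed. Their median GC content was 58.7% (34.3% to 83.3%). It was 60.7% for the 10555 genes of the table that had the flag on all control arrays, and 52.7% for all 27025 genes of the table. The window of Adamts3 held 41 CpG dinucleotides and that of Ivl held 0. Short motifs were searched on both strands as exact letters. The GC box GGGCGG was in 17 of 29 windows (58.6%, beside 63.4% and 35.9% for the other sets in the same order), the CCAAT box in 11 (37.9%, beside 38.6% and 37.9%) and the TATA box TATAAA in 6 (20.7%, beside 7.84% and 14.2%). The E-box CACGTG was in 2 windows (6.90%, beside 10.0% and 7.24%) and the CHR element TTTGAA in 4 (13.8%, beside 12% and 18.1%). An E2F motif (TTTCGCGC or TTTGGCGC) was in 0 of 29 windows (1.5% and 0.833% of the other sets), and so was the CRE motif TGACGTCA (3.16% and 1.88%).

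The AP-1 motif TGAGTCA was in 5 of 29 windows (17.2%), those of Fam180a, Sele, Ucma, Anxa10 and Ivl. It was in 3.64% of the genes of the table that had the flag on all control arrays, and in 5.17% of all genes in the table. Whether this share differs from the others was not tested. A match of letters is a description and not a binding site. The windows of the 3 genes with a bound of at least 2-fold are shown, 5′ to 3′ on the strand of the gene, with the AP-1 letters on either strand in capitals.
Fam180a, chr6:35326092-35326391, minus strand: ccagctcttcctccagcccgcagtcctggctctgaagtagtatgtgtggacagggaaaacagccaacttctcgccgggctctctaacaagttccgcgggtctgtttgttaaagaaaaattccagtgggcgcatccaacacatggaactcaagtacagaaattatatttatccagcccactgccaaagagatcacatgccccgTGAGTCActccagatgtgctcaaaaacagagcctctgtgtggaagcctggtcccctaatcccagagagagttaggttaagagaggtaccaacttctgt
Sele, chr1:164047984-164048283, plus strand: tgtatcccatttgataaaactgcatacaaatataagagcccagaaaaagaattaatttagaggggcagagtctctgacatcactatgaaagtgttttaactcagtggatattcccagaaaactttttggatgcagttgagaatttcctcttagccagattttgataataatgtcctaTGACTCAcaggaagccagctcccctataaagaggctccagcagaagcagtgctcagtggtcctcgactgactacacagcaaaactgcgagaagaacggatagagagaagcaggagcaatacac
Ucma, chr2:4975872-4976171, plus strand: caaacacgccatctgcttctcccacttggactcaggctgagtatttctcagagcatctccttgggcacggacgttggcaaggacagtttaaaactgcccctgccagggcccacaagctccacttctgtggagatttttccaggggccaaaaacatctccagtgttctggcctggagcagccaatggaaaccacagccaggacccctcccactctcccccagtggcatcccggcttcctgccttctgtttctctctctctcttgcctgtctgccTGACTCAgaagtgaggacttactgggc
The match began at base 203 of the window in Fam180a and at base 178 in Sele, 48 and 73 bases before the start, and at base 274 in Ucma, after the start. Their own bounds were 4.2, 3.06 and 2.85, and those of Anxa10 and Ivl 1.39 and 1.66.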

How the data were processed

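Expression was measured in 3 miR-29 and 3 control-transfected astrocyte samples. The spot intensity was extracted by the authors with Agilent Feature Extraction 10.7.3.1, per the file headers (10.7 in the submitters' processing notes), which subtracted background and set the detection flags. The deposited value table holds the same intensity times 1 constant per array and served as an alternative. Of 41174 non-control probes, 26933 were named through RefSeq (GRCm38.p6), and 14241 did not match exactly 1 gene. Values were log2 of the processed signal minus each array's 75th percentile, without outlier-flagged spots, with spots of a probe averaged and values under 1 set to 1. A probe with several spots had the flag where most of its spots did. A probe was kept where it had the flag on all 3 arrays of a group (26427 probes). Each gene was represented by its brightest kept probe. This gave 19740 genes and transcripts, 13716 of them named, which were fitted with limma 3.58.1 in R 4.3.3 (lmFit and eBayes, two-sided, Benjamini-Hochberg, 0.05). SEs are from this fit. Its calls and estimated changes were tested on simulated data over all fitted genes, and its SEs and dim genes alone were not. The simulated arrays were independent of each other, and spreads were shuffled among genes. Slide effects and the tie of spread to brightness were therefore not covered. Counts of arrays limit the precision.

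The genes and lists were chosen with earlier results of these data known, and roles and relatives by name after the members were listed. Values on each array are given for the 20 genes brightest in control cells, the 20 with the largest bound, those in a fixed list, those with 2 qualifying probes and the 3 with the least margin, 26 in all. There were 0 columns of other samples. Alternatives were normexp (on median spot signals in place of the planned mean signals, for which no column was at hand), quantile, median and spike-in scaling, other probe rules, other flags, slide or replicate blocks, and each array left out.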

Additional observations from a re-analysis of the deposited data

How the results depend on the processing

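The number of genes was 12 with the less strict flag and 136 with the flag on at least 2 control arrays. It was 69 with up to 1 flagged miR-29 array and 53 when other probes of a gene were not considered. It was 35 with outlier spots kept and with any 1 spot of a probe counted, the latter chosen after seeing the data. The arrays' scaling does not enter these counts. It does enter the count of 18 genes with a bound of at least 2-fold. Leaving out single arrays gave 37 to 129. The median log2 difference was -0.24 with normexp, -1.69 with spike-in scaling and -1.19 over all probes, -1.57 to -1.43 without single arrays, and -1.50 in the deposited table. Of single genes, Arpp21 turned to 0.047 over all probes. In the whole-table fit, 3369 named genes were lower and 5199 higher, and 5401 and 2228 with spike-in scaling, which moved the median of all genes from 0.068 to -0.18. The replicate block gave 3360 and 5077, and the median of the 35 stayed at -1.45. Deviations of same-numbered arrays correlated at 0.13, 0.094 and 0.25, and 6 of 6 arrays correlated best with their own number, a hint from the data and not from the design. Signals this close to background limit every value given for these genes.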

Other observations

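Transcripts whose accession did not match exactly 1 symbol were left out of the gene set. Under the same rule 26 of them were above background on all control arrays and on no miR-29 array, of 5492 with the flag on all control arrays. By position, 34 of the 35 genes could be placed among protein-coding genes of the RefSeq table. They lay on 19 chromosomes, with at most 4 on 1 chromosome, and 1 pair, Ltf and Arpp21, lay within 20 genes of each other.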
